A study of Mus musculus with 15 samples.

Results

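Enzymes that place, copy and remove DNA methylation and the core of Polycomb repressive complex 2 (PRC2) were followed through choroid plexus tumours of the mouse. The set held 10 genes, chosen by name: Dnmt1, Dnmt3a, Dnmt3b, Uhrf1, Tet1, Tet2, Tet3, Ezh2, Eed and Suz12. All 10 had a probe set paired with exactly 1 gene symbol, among 22180 genes so measured. The choroid plexus lines the brain ventricles and secretes cerebrospinal fluid, and each of the 15 arrays held total RNA from snap-frozen tissue. Carcinomas (5 arrays) carried Atoh1-Cre, Myc/Myc and p53fl/fl, papillomas (5 arrays) carried Atoh1-Cre and Myc/Myc, and normal choroid plexus (5 arrays) carried Myc/Myc and p53fl/fl with no Cre. All groups thus shared Myc/Myc and a mixed C57Bl/6 and 129 background, and carcinoma and normal tissue shared p53fl/fl, which the papilloma labels do not list. Atoh1-Cre expresses Cre from Atoh1 regulatory sequences, which limits recombination to cells in which these are or were active. Ages are not given, and tumours were taken at signs of disease.

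DNA methylation marks cytosine in CpG pairs and, at promoters, usually accompanies silence. Dnmt1 copies the mark to the new strand after replication, and Uhrf1 guides it there by binding DNA methylated on one strand. Dnmt3a and Dnmt3b methylate unmarked DNA, and Tet1, Tet2 and Tet3 oxidise the mark, the first step of its active removal. PRC2 methylates a lysine in the tail of histone H3 and keeps developmental genes silent: Ezh2 is its usual catalytic subunit, and Eed and Suz12 are the subunits it needs to be active. RNA levels were measured here, not the marks or the enzymes' activity.

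In carcinomas 6 of the 10 genes rose against normal tissue (Uhrf1, Ezh2, Dnmt1, Dnmt3b, Tet1 and Tet3) and none fell, with rises of 1.27 to 2.52-fold. Of all 22180 genes, 37.9% passed the test in this comparison, 18.7% higher and 19.2% lower. In papillomas 4 of the 10 rose against normal tissue (Uhrf1, Tet1, Dnmt1 and Dnmt3b) and none fell, where 33.2% of all genes passed, 17.0% higher and 16.3% lower. Carcinomas were above papillomas in 4 of the 10 (Ezh2, Uhrf1, Dnmt1 and Dnmt3b) and below in none, where 11.4% of all genes passed, 6.24% higher and 5.17% lower. The shares of all genes include dim genes, which pass less often. Among the 14278 genes above the array median in at least 5 arrays, 8044, 7127 and 2916 passed in these comparisons. Each is a larger share than over all genes. Members called were again 6, 4 and 4 of 10. That was near the share of these genes in carcinoma against normal, below it in papilloma against normal and above it in carcinoma against papilloma. Dnmt3b counted in each, but it lay above the array median in every tumour array and in no normal array. It met this filter only through the tumours, so its calls here are no support. The median log2 difference over the 10 genes was 0.45, 0.08 and 0.20 in these comparisons, against -0.02, 0.01 and -0.03 over all genes. A gene passed at a Benjamini-Hochberg adjusted p under 0.05 over all genes in limma's test, and every value below is on the log2 scale of the arrays. The papilloma calls of Tet1 and Dnmt1 and the carcinoma against papilloma call of Dnmt3b depended on single arrays, as their accounts below give.

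**Figure D1:**
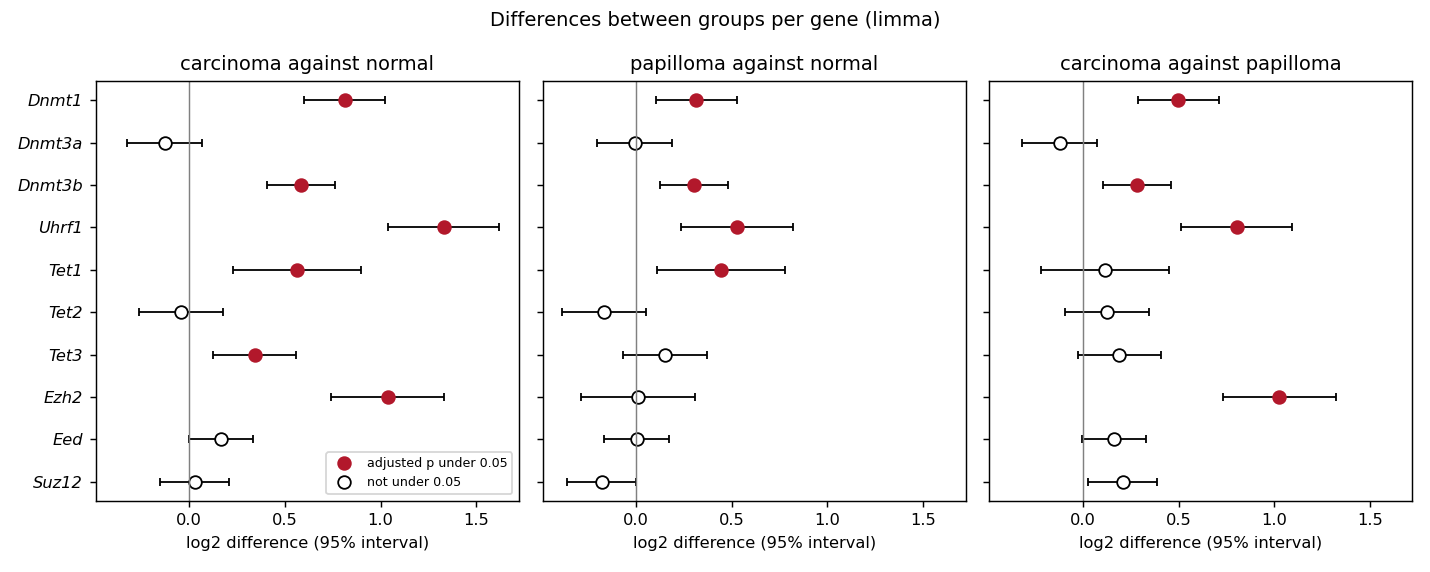
Log2 differences of the 10 genes with 95% intervals for carcinoma against normal, papilloma against normal and carcinoma against papilloma. The Uhrf1, Dnmt1 and Dnmt3b intervals lie above 0 in all 3 comparisons, and that of Ezh2 lies above 0 in both comparisons of carcinoma.

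Bulk tissue was measured, so fewer cells of a type and less RNA per cell cannot be told apart. Levels of cell type markers in the groups were as follows. The mean of the 9 measured choroid plexus epithelium markers was 12.60 to 12.93 in carcinomas, 12.71 to 12.99 in papillomas and 13.17 to 13.24 in normal tissue, high in every array; 4 of the 9 fell in carcinomas and 4 in papillomas. The 11 multiciliated cell markers averaged 7.24 to 8.39 in carcinomas, 7.20 to 7.35 in papillomas and 10.23 to 10.41 in normal tissue, with 10 of 11 lower in each tumour type. Neuron markers (10 genes) averaged 7.08 to 7.61 in carcinomas, 7.11 to 9.23 in papillomas and 8.12 to 8.55 in normal tissue, and papilloma arrays 2 (9.23) and 4 (8.39) stood above the other papillomas. Among the other lists, higher and lower calls numbered 0 and 6 of 9 oligodendrocyte, 2 and 1 of 8 astrocyte, 6 and 0 of 10 endothelial, 1 and 0 of 10 macrophage and 3 and 4 of 10 fibroblast markers in carcinomas against normal tissue. In papillomas against normal tissue they were 0 and 4, 2 and 0, 6 and 1, 0 and 0, and 1 and 6 of these lists in the same order. In carcinomas against papillomas they were 0 and 0, 0 and 1, 0 and 0, 1 and 0, and 3 and 0, and 4 multiciliated markers were higher and none lower. Neuron markers had 0 higher and 5 lower in carcinomas against normal tissue, 0 and 2 in papillomas, and none between the tumour types. Neither of the 2 erythrocyte markers measured passed in any comparison. Of all genes, 37.9% passed in carcinoma against normal, 33.2% in papilloma against normal and 11.4% in carcinoma against papilloma. Normal arrays 2 to 5 were high both in Xist (10.69 to 12.48) and in Y-linked genes (mean 7.72 to 9.74), whereas normal array 1 and all 10 tumour arrays were high in only one of these. The labels name no pooling; an array with RNA of both sexes would hold more than 1 mouse, and the SDs of normal tissue would then be between pools. The part of these differences in the results was not tested.

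The maintenance pair rose in steps, with carcinoma above papilloma and papilloma above normal tissue. Uhrf1 had log2 values of 9.26, 9.48, 8.90, 9.26 and 8.64 in the carcinoma arrays 1 to 5, against 8.52, 8.08, 8.43, 8.34 and 8.17 in the papilloma arrays and 7.77, 7.91, 7.60, 7.82 and 7.79 in the normal arrays. No array of one group overlapped the next, and carcinomas 2, 1 and 4 were highest. Uhrf1 averaged 9.11 ± 0.33 in carcinoma, 8.31 ± 0.18 in papilloma and 7.78 ± 0.11 in normal tissue (SD, n = 5 each). The difference was 1.33 (SE 0.14, 2.52-fold, adjusted p = 1.06e-06) for carcinoma against normal, 0.53 (SE 0.14, 1.44-fold, adjusted p = 0.00638) for papilloma against normal and 0.80 (SE 0.14, 1.74-fold, adjusted p = 0.00135) for carcinoma against papilloma. Dnmt1 had log2 values of 10.36, 10.42, 10.11, 10.45 and 9.997 in the carcinoma arrays 1 to 5, against 9.76, 9.66, 9.69, 9.95 and 9.79 in the papilloma arrays and 9.21, 9.50, 9.55, 9.48 and 9.54 in the normal arrays. Its groups did not overlap either, and normal array 1 was lowest. Dnmt1 averaged 10.27 ± 0.20 in carcinoma, 9.77 ± 0.11 in papilloma and 9.46 ± 0.14 in normal tissue (SD, n = 5 each). The difference was 0.81 (SE 0.10, 1.76-fold, adjusted p = 7.08e-06) for carcinoma against normal, 0.31 (SE 0.10, 1.24-fold, adjusted p = 0.0222) for papilloma against normal and 0.50 (SE 0.10, 1.41-fold, adjusted p = 0.00418) for carcinoma against papilloma. The papilloma call of Dnmt1 ended without normal array 1 (0.25, adjusted p = 0.0638), without papilloma array 4 (0.27, adjusted p = 0.0617) and without papilloma arrays 2 and 4 (0.29, adjusted p = 0.0757).

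The promoters of Dnmt1, Uhrf1 and Ezh2 are shown because these 3 genes had the largest rises in carcinoma, and that of Suz12 because it holds a word of the same class and the gene passed no test. Each is the 300 bases from 250 before to 50 after a RefSeq start site on GRCm38.p6, 5′ to 3′ along the gene's strand: Dnmt1 at chr9:20952574-20952873, minus strand; Uhrf1 at chr17:56304063-56304362, plus strand; Ezh2 at chr6:47594981-47595280, minus strand; Suz12 at chr11:79992856-79993155, plus strand. Capitals mark a word of the E2F type (TTTCCCGC, TTTCGCGC, TTTGCCGC or TTTGGCGC on either strand), the sequence class bound by E2F factors, which drive genes of DNA replication.
Dnmt1: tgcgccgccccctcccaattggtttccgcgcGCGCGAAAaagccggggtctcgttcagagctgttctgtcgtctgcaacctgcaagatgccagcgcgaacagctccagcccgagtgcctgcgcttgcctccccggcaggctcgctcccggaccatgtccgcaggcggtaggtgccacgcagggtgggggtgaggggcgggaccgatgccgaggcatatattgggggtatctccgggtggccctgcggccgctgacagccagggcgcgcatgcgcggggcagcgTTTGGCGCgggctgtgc
Uhrf1: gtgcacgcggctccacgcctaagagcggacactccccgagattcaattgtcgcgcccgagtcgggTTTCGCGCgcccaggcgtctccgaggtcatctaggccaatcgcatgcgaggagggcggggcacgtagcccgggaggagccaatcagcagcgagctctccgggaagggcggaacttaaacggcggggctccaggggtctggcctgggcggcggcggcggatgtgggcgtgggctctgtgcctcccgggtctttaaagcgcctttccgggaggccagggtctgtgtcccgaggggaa
Ezh2: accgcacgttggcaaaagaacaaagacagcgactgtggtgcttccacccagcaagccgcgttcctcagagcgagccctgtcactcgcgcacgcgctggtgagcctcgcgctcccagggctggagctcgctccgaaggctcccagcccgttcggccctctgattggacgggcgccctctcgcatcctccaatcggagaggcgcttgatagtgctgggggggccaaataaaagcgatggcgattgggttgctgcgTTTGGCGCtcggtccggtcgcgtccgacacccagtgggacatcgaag
Suz12: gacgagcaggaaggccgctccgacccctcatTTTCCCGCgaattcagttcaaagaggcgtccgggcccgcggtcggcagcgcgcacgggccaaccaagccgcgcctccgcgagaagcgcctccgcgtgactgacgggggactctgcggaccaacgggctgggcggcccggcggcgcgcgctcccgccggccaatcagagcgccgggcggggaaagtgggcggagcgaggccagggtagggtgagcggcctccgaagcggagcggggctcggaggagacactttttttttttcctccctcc
Dnmt1 held 2 such words, 219 bases before and 33 after the start. Uhrf1 held 1 at 185 before, Ezh2 1 at 3 after and Suz12 1 at 219 before. These words were found in 4 of the 10 genes, counting every listed start: 1 of 3 windows of Dnmt1 and 1 of 2 of Uhrf1 held one. Of all 32851 promoter windows 2.26% held one, and of the 8701 windows with at least 20 CpG pairs 5.15% did; the 4 windows shown held 31 to 41 CpG pairs. By gene, the share was 3.26% of 16990 tested genes, 10 of 20 S phase genes and 1 of 16 mitotic genes. Other words were searched on both strands. CACGTG, the E-box bound by Myc, was in 1 of the 10 genes (Dnmt3a, 80 bases before a start) and in 9.19% of the tested genes; TTTGAA, the core of the element of cell cycle genes, was in 4 of 10 and 17.8%; CCAAT was in 6 of 10 and 41.6%. Of the windows with at least 20 CpG pairs, 11.6%, 6.99% and 32.9% held these words, and of all windows 7.15%, 17.9% and 37.4%. A match is a description of these letters.

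**Figure D2:**
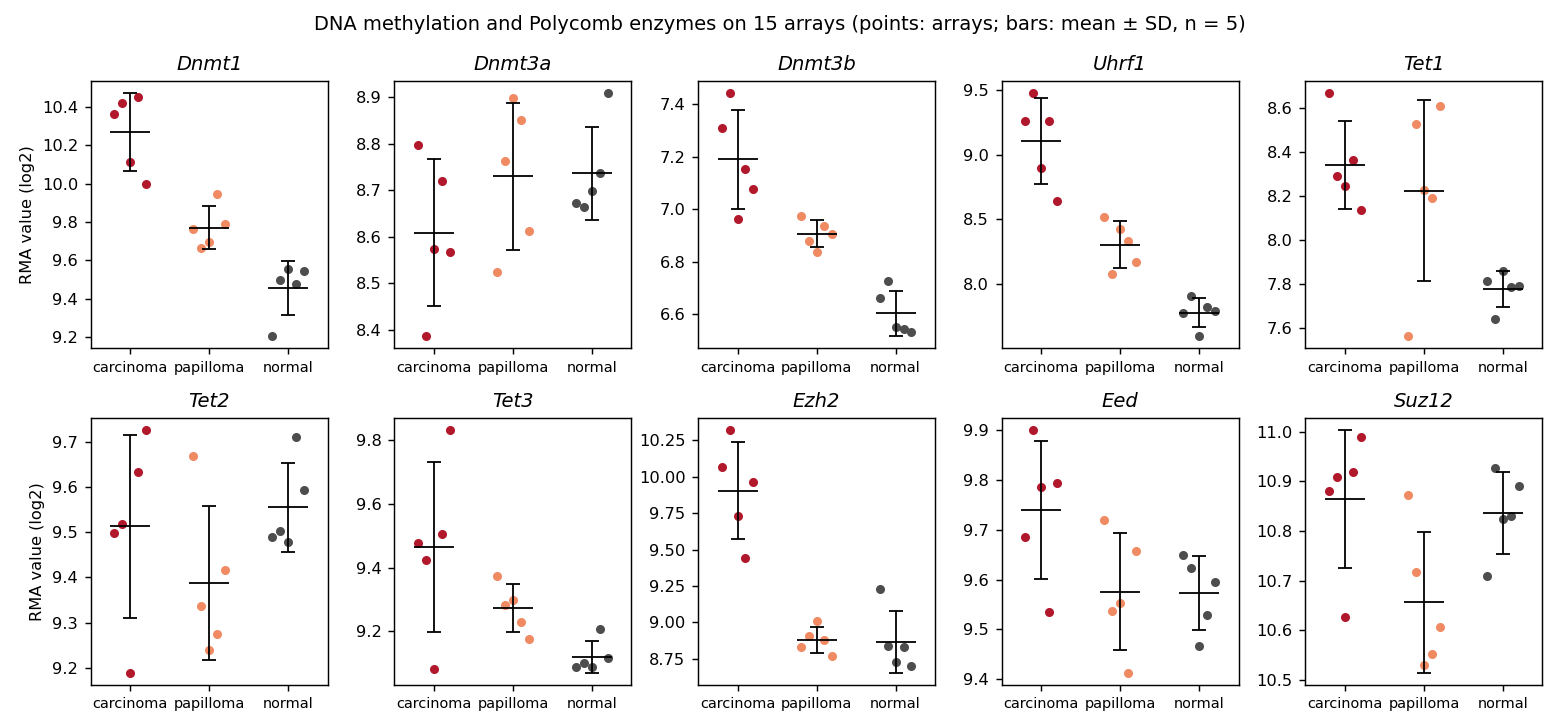
Log2 value of each of the 10 genes in every array, with group means, for carcinoma, papilloma and normal tissue. Uhrf1 and Dnmt1 step down from carcinoma to papilloma to normal tissue with no overlap, and in Ezh2 carcinoma alone lies apart.

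Of the de novo enzymes, Dnmt3b rose and Dnmt3a did not pass in any comparison. Dnmt3b had log2 values of 7.31, 7.44, 6.96, 7.15 and 7.08 in the carcinoma arrays 1 to 5, against 6.97, 6.88, 6.84, 6.94 and 6.90 in the papilloma arrays and 6.66, 6.72, 6.55, 6.54 and 6.53 in the normal arrays. All tumours were above all normal arrays, in which Dnmt3b lay below the array median, and carcinoma 3 lay among the papillomas. Dnmt3b averaged 7.19 ± 0.19 in carcinoma, 6.91 ± 0.05 in papilloma and 6.60 ± 0.09 in normal tissue (SD, n = 5 each). The difference was 0.59 (SE 0.08, 1.5-fold, adjusted p = 3.35e-05) for carcinoma against normal and 0.30 (SE 0.08, 1.23-fold, adjusted p = 0.00971) for papilloma against normal. Carcinoma against papilloma gave 0.28 (SE 0.08, 1.22-fold, adjusted p = 0.0394), with 4 of 5 carcinomas above every papilloma. That call ended without any one papilloma array, without normal array 3 or 4, and without carcinoma array 1 or 2 (0.22 to 0.30, adjusted p up to 0.0939). Dnmt3a spanned 8.39 to 8.80 in carcinomas, 8.52 to 8.90 in papillomas and 8.66 to 8.91 in normal tissue, and the groups overlapped. Its difference was -0.13 (95% interval -0.32 to 0.07, adjusted p = 0.317) for carcinoma against normal, -0.01 (95% interval -0.20 to 0.19, adjusted p = 0.971) for papilloma against normal and -0.12 (95% interval -0.32 to 0.08, adjusted p = 0.466) for carcinoma against papilloma. Genes of chromosome 12, where Dnmt3a lies, had a median carcinoma against normal difference of -0.14, and with each chromosome's shift removed Dnmt3a was at 0.01.

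Among the dioxygenases, Tet1 and Tet3 rose in carcinoma and Tet2 did not pass in any comparison. Tet1 had log2 values of 8.67, 8.29, 8.25, 8.36 and 8.14 in the carcinoma arrays 1 to 5, against 7.56, 8.53, 8.23, 8.19 and 8.61 in the papilloma arrays and 7.81, 7.64, 7.86, 7.79 and 7.79 in the normal arrays. Every carcinoma exceeded every normal array, while 4 papillomas lay above and papilloma 1 below all normal arrays. Tet1 averaged 8.34 ± 0.20 in carcinoma, 8.22 ± 0.41 in papilloma and 7.78 ± 0.08 in normal tissue (SD, n = 5 each). The difference was 0.56 (SE 0.16, 1.48-fold, adjusted p = 0.00936) for carcinoma against normal, 0.45 (SE 0.16, 1.36-fold, adjusted p = 0.0387) for papilloma against normal and 0.12 (95% interval -0.22 to 0.45, adjusted p = 0.712) for carcinoma against papilloma. The papilloma call of Tet1 ended without any one normal array (0.41 to 0.47), without papilloma array 2 (0.37), 3 (0.45), 4 (0.45) or 5 (0.35), and without papilloma arrays 2 and 4 (0.36, adjusted p = 0.171), while without papilloma 1 it was 0.61. Tet3 had log2 values of 9.48, 9.42, 9.08, 9.51 and 9.83 in the carcinoma arrays 1 to 5, against 9.37, 9.28, 9.30, 9.23 and 9.18 in the papilloma arrays and 9.09, 9.10, 9.09, 9.21 and 9.12 in the normal arrays. Carcinomas 1, 2, 4 and 5 were above every normal array and carcinoma 3 below them all. The difference was 0.34 (SE 0.10, 1.27-fold, adjusted p = 0.014) for carcinoma against normal, 0.15 (95% interval -0.07 to 0.37, adjusted p = 0.303) for papilloma against normal and 0.19 (95% interval -0.03 to 0.41, adjusted p = 0.272) for carcinoma against papilloma. Without carcinoma 3 the last was 0.29 (adjusted p = 0.0341). Tet2 spanned 9.19 to 9.73 in carcinomas, 9.24 to 9.67 in papillomas and 9.48 to 9.71 in normal tissue. Its differences were -0.04 (95% interval -0.26 to 0.18, adjusted p = 0.799), -0.17 (95% interval -0.39 to 0.05, adjusted p = 0.253) and 0.13 (95% interval -0.09 to 0.35, adjusted p = 0.506) in the same order of comparisons.

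In the PRC2 core only the catalytic subunit passed. Ezh2 had log2 values of 10.06, 10.32, 9.73, 9.44 and 9.97 in the carcinoma arrays 1 to 5, against 8.83, 8.90, 9.01, 8.88 and 8.77 in the papilloma arrays and 9.23, 8.84, 8.73, 8.83 and 8.70 in the normal arrays. The 5 carcinomas lay above all other arrays, whereas papilloma and normal arrays overlapped and normal array 1 was the highest of its group. Ezh2 averaged 9.90 ± 0.33 in carcinoma, 8.88 ± 0.09 in papilloma and 8.87 ± 0.21 in normal tissue (SD, n = 5 each). The difference was 1.04 (SE 0.14, 2.05-fold, adjusted p = 1.80e-05) for carcinoma against normal and 1.03 (SE 0.14, 2.04-fold, adjusted p = 0.000255) for carcinoma against papilloma. Papilloma against normal gave 0.01 (95% interval -0.28 to 0.31, adjusted p = 0.965). Eed spanned 9.53 to 9.90 in carcinomas, 9.41 to 9.72 in papillomas and 9.47 to 9.65 in normal tissue, with overlap throughout. Its carcinoma against normal difference was 0.17 (SE 0.08, adjusted p = 0.116), and without carcinoma array 4 it was 0.22 (adjusted p = 0.0307). Its papilloma against normal difference was 0.0031 (95% interval -0.16 to 0.17). Suz12 spanned 10.63 to 10.99 in carcinomas, 10.53 to 10.87 in papillomas and 10.71 to 10.93 in normal tissue. Its difference, with a 95% interval not adjusted over genes, was 0.03 (-0.15 to 0.21, adjusted p = 0.835) for carcinoma against normal, -0.18 (SE 0.08, -0.36 to -0.00084, adjusted p = 0.122) for papilloma against normal and 0.21 (SE 0.08, 0.03 to 0.39, adjusted p = 0.133) for carcinoma against papilloma. Without papilloma array 1 the second was -0.23 (adjusted p = 0.04), and without carcinoma array 3 the third was 0.27 (adjusted p = 0.0369).

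**Figure D3:**
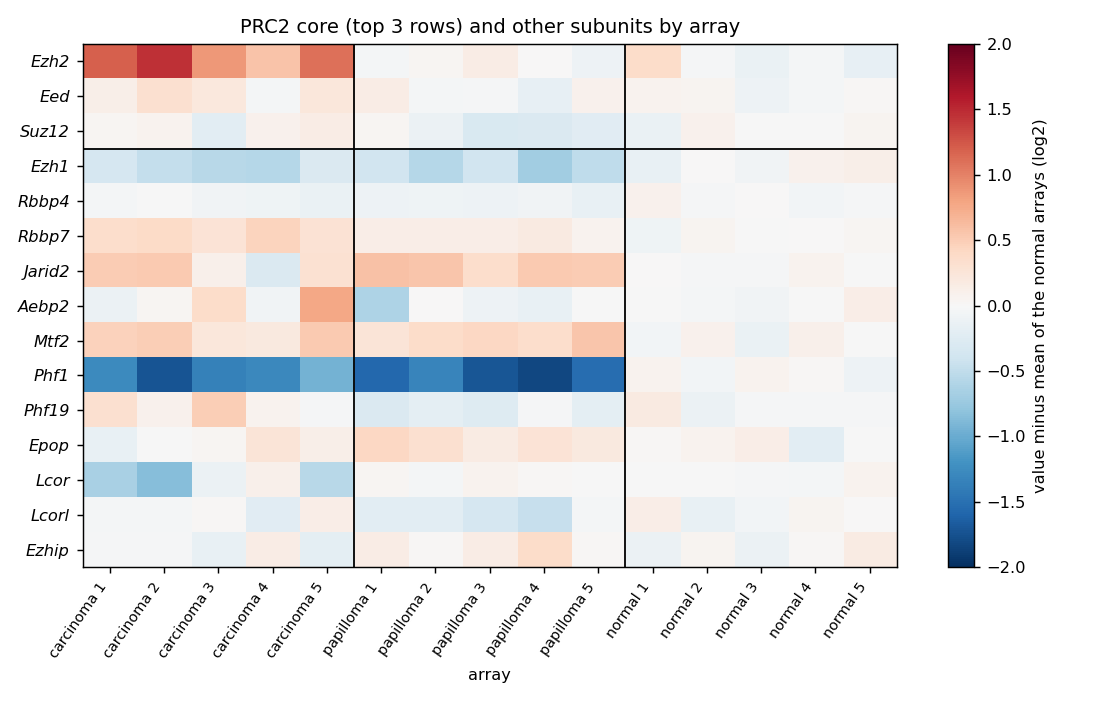
Log2 difference of PRC2 subunits from the normal mean in every carcinoma, papilloma and normal array. Ezh2 is high in the 5 carcinomas, Ezh1 and Phf1 are low in all 10 tumours, and Eed and Suz12 lie closer to the normal mean.

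The groups did not overlap, with the tumour arrays higher, for 5 of the 10 genes in carcinoma against normal (Dnmt1, Dnmt3b, Uhrf1, Tet1 and Ezh2), beside 14.6% of all genes. The count was 3 of 10 in papilloma against normal (Dnmt1, Dnmt3b and Uhrf1), beside 16.3%, and 3 of 10 in carcinoma against papilloma (Dnmt1, Uhrf1 and Ezh2), beside 4.52%. The median SD of the 10 genes was 0.20 in carcinoma, 0.13 in papilloma and 0.09 in normal tissue, against 0.19, 0.15 and 0.12 over all genes. The most variable member was Uhrf1 in carcinoma (SD 0.33), Tet1 in papilloma (0.41) and Ezh2 in normal tissue (0.21).

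Genes of cell division moved the same way as the maintenance pair. All 24 measured S phase genes rose in carcinoma against normal (median 1.30), 16 rose and none fell in papilloma against normal (0.76), and 18 rose and none fell in carcinoma against papilloma (0.72). Examples are Dtl, a substrate adaptor of a replication-coupled ubiquitin ligase, at 4.28 (adjusted p = 7.32e-11) in carcinoma and 3.10 (adjusted p = 2.40e-09) in papilloma, and Mcm3, of the replicative helicase, at 2.88 (adjusted p = 4.13e-10) and 1.63 (adjusted p = 2.38e-07). All 19 measured mitotic genes rose in each of the 3 comparisons, with medians of 2.999, 1.34 and 1.59. Among them were Ccnb2, a mitotic cyclin, at 4.53 (adjusted p = 4.56e-11) in carcinoma and Mki67, a protein of dividing cells, at 3.97 (adjusted p = 1.03e-09). The mean of the S phase list was 9.24 to 9.88 in carcinomas, 8.67 to 8.94 in papillomas and 7.84 to 8.03 in normal tissue. That of the mitotic list was 9.001 to 10.42, 7.94 to 8.41 and 6.67 to 6.82, with carcinoma 2 highest and carcinoma 5 lowest among carcinomas. Uhrf1 was likewise highest in carcinoma 2 and lowest in carcinoma 5 within its group. The other members called in carcinoma differed from this order. Ezh2 was highest in carcinoma 2 and lowest in carcinoma 4, and Dnmt3b highest in carcinoma 2 and lowest in carcinoma 3. Dnmt1 was highest in carcinoma 4 and Tet1 in carcinoma 1, both lowest in carcinoma 5. Tet3 was highest in carcinoma 5 and lowest in carcinoma 3. In papillomas, where genes of both lists had risen, Ezh2 did not pass. The part of division in the results was not tested.

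**Figure D4:**
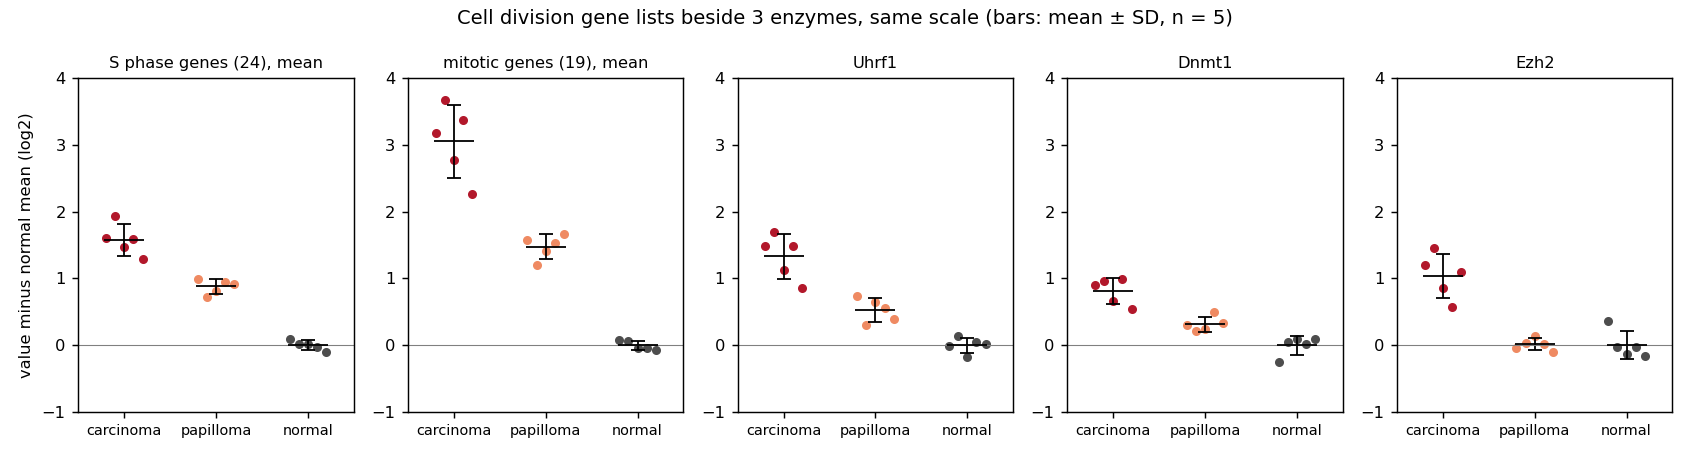
Means of the S phase and mitotic lists, and Uhrf1, Dnmt1 and Ezh2, in each array by group, as log2 value minus the normal mean. Bars give the mean and SD of each group. Papillomas lie between carcinomas and normal tissue for both lists, Uhrf1 and Dnmt1, and overlap with normal tissue for Ezh2.

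The 4 genes whose group means spread most were Uhrf1, Ezh2, Dnmt1 and Tet1. For each, the 3 genes nearest over the 15 arrays were taken by the root mean square difference in log2 value after each gene's own mean was subtracted. For Uhrf1 they were Troap (0.128), Rrm1 (0.133) and Pmf1 (0.139), of which Rrm1 is the large subunit of ribonucleotide reductase. For Dnmt1 they were Tmpo (0.134), Lmnb1 (0.135) and Orc1 (0.138), where Lmnb1 is lamin B1 and Orc1 part of the origin recognition complex. For Ezh2 they were Mpzl1 (0.177), Tead2 (0.186) and Ncan (0.189), where Tead2 is a transcription factor of the Hippo pathway and Ncan a brain matrix proteoglycan. For Tet1 they were Zfp397 (0.152), Fads6 (0.153) and Ice2 (0.165).

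Other genes of the pathways were read from 5 lists, 85 genes in all. In carcinoma against normal 31 rose and 20 fell (60% passed, beside 37.9% of all genes), in papilloma against normal 25 rose and 17 fell (49.4%, beside 33.2%), and in carcinoma against papilloma 18 rose and 2 fell (23.5%, beside 11.4%). That last count was 8 in a fit on these 2 groups alone and 12 without papilloma arrays 2 and 4, in place of 20. Among genes above the array median in at least 5 arrays, 50 of 79 pathway genes passed in carcinoma against normal, beside 8044 of 14278. The counts were 42 of 79 beside 7127 in papilloma against normal, and 24 of 79 beside 2916 in carcinoma against papilloma. In each comparison the excess was smaller than with dim genes included. The shares of all genes beside each list below include dim genes too. Whether a list's excess holds among brighter genes was not tested.

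**Figure D5:**
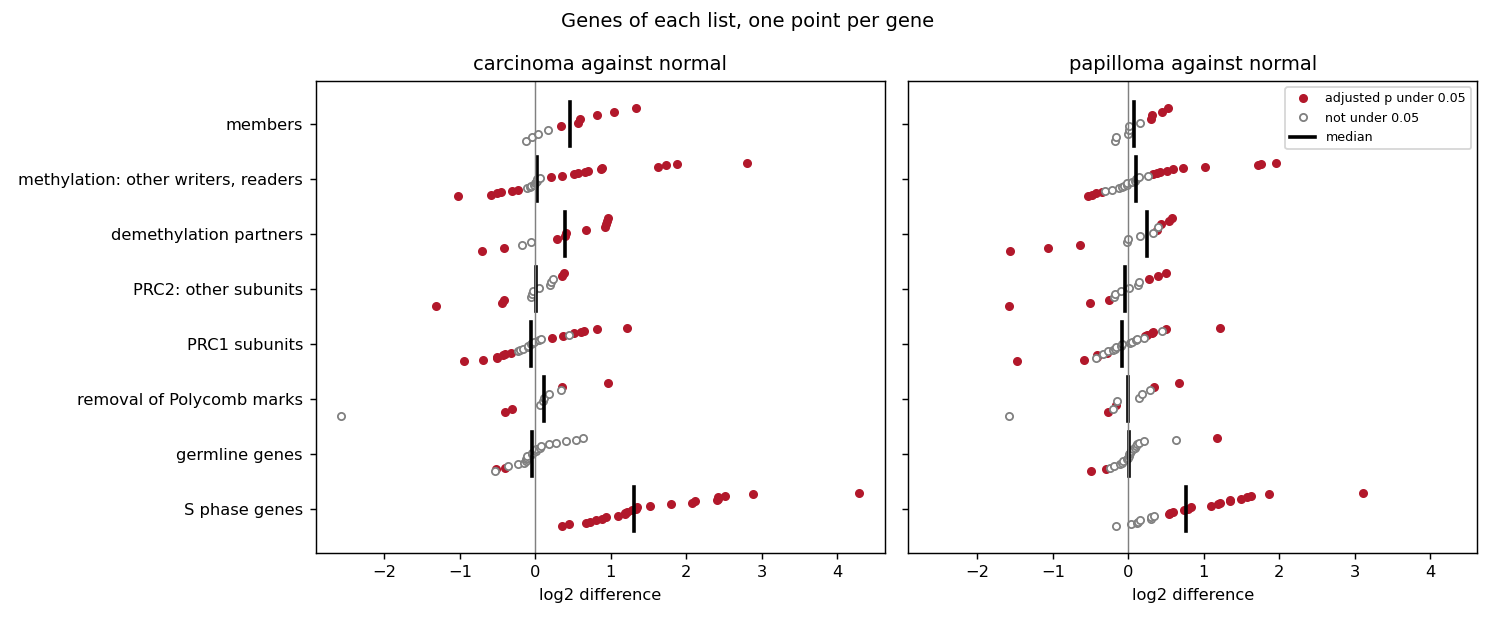
Log2 difference of each gene of the members and of the pathway, germline and S phase lists, for carcinoma against normal and papilloma against normal. Filled points passed and lines mark list medians. All S phase genes rose in carcinoma against normal, and the PRC2 and PRC1 lists hold rises and falls in both tumour types.

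Among 27 other writers, readers and helpers of DNA methylation, 12 rose and 6 fell in carcinoma against normal (median 0.02), 10 rose and 4 fell in papilloma against normal (0.10), and 4 rose and 1 fell in carcinoma against papilloma. These calls were 66.7%, 51.9% and 18.5% of the list, beside 37.9%, 33.2% and 11.4% of all genes. Hells, the remodelling helicase that opens chromatin for methylation, spanned 7.97 to 8.76 in carcinomas, 7.60 to 7.94 in papillomas and 6.57 to 7.07 in normal tissue. Its 3 groups did not overlap, and its differences for carcinoma against normal, papilloma against normal and carcinoma against papilloma were 1.63 (SE 0.13, adjusted p = 8.52e-08), 1.01 (SE 0.13, adjusted p = 1.73e-05) and 0.62 (SE 0.13, adjusted p = 0.00641). Cdca7, the zinc finger partner that activates Hells, spanned 8.77 to 9.25 in carcinomas, 7.10 to 8.21 in papillomas and 6.05 to 6.27 in normal tissue, and its differences in the same order were 2.81 (SE 0.16, adjusted p = 2.44e-09), 1.72 (SE 0.16, adjusted p = 5.32e-07) and 1.09 (SE 0.16, adjusted p = 0.000527). Both genes followed the stepwise order of Uhrf1 and Dnmt1. Cdca7l, a relative of Cdca7, and Ahcy, which clears the by-product of methyl transfer, rose in both tumour types: 1.73 (adjusted p = 6.47e-06) and 1.76 (adjusted p = 6.49e-06) for Cdca7l, 1.88 (adjusted p = 8.46e-05) and 1.96 (adjusted p = 6.95e-05) for Ahcy. Carcinoma minus papilloma was -0.04 (95% interval -0.48 to 0.41, adjusted p = 0.941) for Cdca7l and -0.08 (95% interval -0.71 to 0.55, adjusted p = 0.906) for Ahcy. The methyl-binding zinc finger protein Zbtb4 fell in the same 3 comparisons, with -1.03 (SE 0.11, adjusted p = 1.57e-06), -0.53 (SE 0.11, adjusted p = 0.00111) and -0.49 (SE 0.11, adjusted p = 0.00809), and its relative Zbtb38 fell in carcinoma (-0.50, adjusted p = 3.12e-05) and papilloma (-0.48, adjusted p = 6.11e-05). Trdmt1 (Dnmt2), which methylates transfer RNA, fell in carcinoma (-0.59, adjusted p = 0.000345) and papilloma (-0.43, adjusted p = 0.00477), and Mbd2, a methyl-CpG reader, fell in papilloma (-0.34, adjusted p = 0.000568). Mbd4, a glycosylase that binds methylated CpG, rose in carcinoma against normal (0.87, adjusted p = 0.000165) and against papilloma (0.61, adjusted p = 0.013), and Uhrf2, the relative of Uhrf1, rose in carcinoma against normal (0.65, adjusted p = 0.00137) and against papilloma (0.50, adjusted p = 0.0291). The carcinoma against papilloma call of Mbd4 ended without papilloma arrays 2 and 4, and that of Uhrf2 ended without papilloma 3 or any of carcinomas 1 to 3 (0.38 to 0.48, adjusted p up to 0.0703). Cxxc5, a CpG-binding zinc finger protein, fell in carcinoma (-0.46, adjusted p = 0.0357). Leaving out carcinoma 1 or any of normal 1 to 4 ended this call (-0.47 to -0.44, adjusted p up to 0.0699).

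Among 12 partners of active demethylation, 8 rose and 2 fell in carcinoma against normal (median 0.40), 4 rose and 3 fell in papilloma against normal (0.24), and 4 rose in carcinoma against papilloma. Calls made up 83.3%, 58.3% and 33.3% of the list, beside 37.9%, 33.2% and 11.4% of all genes. The cytidine deaminase Apobec3 rose by 0.97 (SE 0.16, adjusted p = 0.000177) in carcinoma against normal and by 0.81 (SE 0.16, adjusted p = 0.0045) against papilloma. Of the base excision repair genes, the glycosylase Neil3 was at 0.93 (adjusted p = 3.59e-05) and 0.60 (adjusted p = 0.00818) in these comparisons, and the scaffold Xrcc1 rose in carcinoma (0.92, adjusted p = 6.36e-07) and papilloma (0.58, adjusted p = 9.35e-05), with 0.34 (adjusted p = 0.022) between the tumour types. Of the stress-induced Gadd45 genes, Gadd45b rose in carcinoma (0.95, adjusted p = 0.000679), whereas Gadd45g fell in carcinoma (-0.71, adjusted p = 0.00853) and papilloma (-1.06, adjusted p = 0.000444). Idh1, the cytosolic enzyme that makes the Tet co-substrate 2-oxoglutarate, fell in carcinoma (-0.41, adjusted p = 0.00244) and papilloma (-0.64, adjusted p = 6.17e-05), and its mitochondrial relative Idh2 rose in papilloma (0.55, adjusted p = 7.60e-07). The glycosylases Smug1 and Neil2 also rose in papilloma, at 0.44 (adjusted p = 0.000415) and 0.37 (adjusted p = 0.00787). Apobec1, an RNA-editing deaminase, fell in papilloma (-1.57, adjusted p = 0.00226), and carcinoma was above papilloma (1.39, adjusted p = 0.0176); its SD was 0.99 among carcinomas. The carcinoma against papilloma calls of Apobec1 and Neil3 ended without papilloma arrays 2 and 4, and that of Xrcc1 ended without papilloma 2, carcinoma 1 or carcinoma 2 (0.28 to 0.32, adjusted p up to 0.058).

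Of 12 other PRC2 subunits, 2 rose and 3 fell in carcinoma against normal (median 0.01), 3 rose and 3 fell in papilloma against normal (-0.04), and 2 rose in carcinoma against papilloma (0.05). Calls thus numbered 5, 6 and 2 of 12, beside 37.9%, 33.2% and 11.4% of all genes. Ezh1 had log2 values of 10.69, 10.55, 10.48, 10.46 and 10.75 in the carcinoma arrays 1 to 5, against 10.64, 10.47, 10.64, 10.34 and 10.52 in the papilloma arrays and 10.89, 11.04, 10.96, 11.11 and 11.15 in the normal arrays. Ezh1 is the second catalytic subunit, typical of cells that do not divide, and all 10 tumours were below every normal array. Its difference was -0.45 (SE 0.08, 1.36-fold lower, adjusted p = 0.000418) for carcinoma, where Ezh2 rose, and -0.51 (SE 0.08, 1.42-fold lower, adjusted p = 0.000146) for papilloma, where Ezh2 did not pass. Carcinoma minus papilloma was 0.06 (95% interval -0.11 to 0.24, adjusted p = 0.698). Phf1, a Polycomb-like subunit, averaged 8.51 ± 0.27 in carcinoma, 8.24 ± 0.19 in papilloma and 9.83 ± 0.08 in normal tissue (SD, n = 5 each), with -1.32 (SE 0.12, adjusted p = 3.02e-07) and -1.59 (SE 0.12, adjusted p = 4.59e-08) against normal. Its relative Mtf2 rose in both, at 0.38 (adjusted p = 0.00178) in carcinoma and 0.39 (adjusted p = 0.00172) in papilloma, and the third relative, Phf19, was above papilloma in carcinoma (0.38, adjusted p = 0.0178). This Phf19 call was lost in a limma fit on the carcinoma and papilloma arrays alone (0.38, adjusted p = 0.0604). Rbbp7, a histone-binding subunit, rose in carcinoma against normal (0.35, adjusted p = 0.000122) and against papilloma (0.22, adjusted p = 0.0208). Jarid2, which brings PRC2 to chromatin, rose in papilloma (0.50, adjusted p = 0.00439), and was at 0.23 (adjusted p = 0.165) in carcinoma. Epop rose in papilloma (0.27, adjusted p = 0.0231), and the related Lcor and Lcorl fell in carcinoma (-0.41, adjusted p = 0.026) and papilloma (-0.25, adjusted p = 0.0391) in that order. The call of Rbbp7 against papilloma ended without papilloma array 5 (0.20, adjusted p = 0.0532), that of Epop without normal array 4 or papilloma array 1 (0.22 to 0.24, adjusted p up to 0.0699), that of Lcor without carcinoma 1, 2 or 5 or normal 5 (-0.39 to -0.30, adjusted p up to 0.0704), and that of Lcorl without any one of papilloma arrays 1 to 4 or normal arrays 1, 3, 4 and 5 (-0.26 to -0.20, adjusted p up to 0.108).

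PRC1, which ubiquitinates histone H2A and reads the mark of PRC2, had rises and falls in equal number in carcinoma. Of 25 subunits, 7 rose and 7 fell in carcinoma against normal (median -0.05), 6 rose and 5 fell in papilloma against normal (-0.09), and 5 rose and 1 fell in carcinoma against papilloma (0.01). The shares called were 56%, 44% and 24%, beside 37.9%, 33.2% and 11.4% of all genes. Cbx7, a reader of the PRC2 mark, spanned 9.43 to 9.91 in carcinomas, 8.94 to 9.48 in papillomas and 10.60 to 10.67 in normal tissue. It fell in both tumour types, further in papilloma, with -0.95 (SE 0.10, adjusted p = 2.04e-06) and -1.47 (SE 0.10, adjusted p = 2.04e-08) against normal and 0.53 (SE 0.10, adjusted p = 0.00366) for carcinoma against papilloma. Another reader, Cbx2, rose in carcinoma (0.60, adjusted p = 1.21e-05) and papilloma (0.50, adjusted p = 9.75e-05). Pcgf6 and Mga belong to the variant complex that binds E-box sites. Pcgf6 rose in carcinoma (1.22, adjusted p = 6.94e-06) and papilloma (1.21, adjusted p = 9.21e-06), and Mga rose in carcinoma against normal (0.64, adjusted p = 0.00034) and against papilloma (0.44, adjusted p = 0.023); L3mbtl2 of the same complex rose in papilloma (0.32, adjusted p = 0.00312). Scmh1 rose in carcinoma against normal (0.81, adjusted p = 2.79e-05) and against papilloma (0.80, adjusted p = 0.000377), with papilloma against normal at 0.02 (adjusted p = 0.939). The adaptor Rybp fell in carcinoma against normal (-0.51, adjusted p = 8.45e-06) and against papilloma (-0.35, adjusted p = 0.00215), and its relative Yaf2 fell in papilloma (-0.41, adjusted p = 0.00123). Pcgf1 (-0.69, adjusted p = 0.00118) and the ubiquitin ligase subunit Ring1 (-0.51, adjusted p = 0.00123) fell in carcinoma. In papilloma Bcorl1 (-0.41, adjusted p = 0.00207) and Phc1 (-0.59, adjusted p = 0.000136) fell, and Phc1 was higher in carcinoma than in papilloma (0.36, adjusted p = 0.022). Pcgf3 rose in papilloma (0.31, adjusted p = 0.0373), a call that ended without any one papilloma array or without normal array 1, 2 or 3 (0.27 to 0.33, adjusted p up to 0.0951). The calls of Mga and Phc1 against papilloma ended without carcinoma array 1 or 2, that of Mga also without papilloma array 3 (0.39 to 0.43, adjusted p up to 0.058) and that of Phc1 without papilloma array 1 or 4 (0.31 to 0.34, adjusted p up to 0.0579).

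Of 10 genes that remove Polycomb marks, 2 rose and 2 fell in carcinoma against normal, 2 rose and 2 fell in papilloma against normal, and 3 rose in carcinoma against papilloma. Calls were thus 40%, 40% and 30% of the list, the first 2 near the shares of all genes (37.9%, 33.2% and 11.4%). Asxl1, partner of the H2A deubiquitinase Bap1, rose in carcinoma (0.96, adjusted p = 1.02e-07) and papilloma (0.67, adjusted p = 6.28e-06), and Bap1 rose in carcinoma (0.35, adjusted p = 0.00285). Asxl3 fell in carcinoma (-0.40, adjusted p = 0.00117) and papilloma (-0.27, adjusted p = 0.0188), and Asxl2 fell in carcinoma (-0.31, adjusted p = 0.017), where it was at -0.17 (adjusted p = 0.13) with chromosome shifts removed. The papilloma call of Asxl3 ended without papilloma arrays 2 and 4. Kdm6b, which demethylates the PRC2 target lysine, rose in papilloma (0.34, adjusted p = 0.0152). Against papilloma, carcinoma was higher in Asxl1 (0.29, adjusted p = 0.0247) and in the H2A deubiquitinases Mysm1 (0.26, adjusted p = 0.0259) and Usp21 (0.23, adjusted p = 0.022), and Usp21 fell in papilloma against normal (-0.17, adjusted p = 0.0461). These last 4 calls ended when single arrays were left out: Asxl1 without papilloma 2 or 3 or carcinoma 1, 2 or 5 (0.26 to 0.29, adjusted p up to 0.0643), Mysm1 without papilloma 3 or 4 or carcinoma 2 (0.23 to 0.24, adjusted p up to 0.067), Usp21 against papilloma without papilloma 1 or 3 (0.20 to 0.23, adjusted p up to 0.0551) and against normal without any one normal array, papilloma 1 to 4 or carcinoma 1 (-0.18 to -0.13, adjusted p up to 0.12). Uty, on the Y chromosome, is one of the 10 and passed no test.

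Germline genes that promoter methylation keeps silent in body tissues were read as a list of 21. None rose and 2 fell in carcinoma against normal, 1 rose and 2 fell in papilloma against normal, and 1 fell in carcinoma against papilloma. These were 9.52%, 14.3% and 4.76% of the list, each below the share of all genes. The mean of the list was at most 5.72 in carcinomas, 5.86 in papillomas and 5.74 in normal tissue. Every array median was higher (6.79 to 6.90). Dim genes pass less often, so these low shares cannot show whether the list stayed silent. Mael fell in carcinoma (-0.52, adjusted p = 0.000385) and papilloma (-0.30, adjusted p = 0.0232), and Dazl fell in carcinoma against normal (-0.40, adjusted p = 0.00406) and against papilloma (-0.41, adjusted p = 0.0125). Rhox5 rose in papilloma (1.18, adjusted p = 0.013), where its values were 7.14 to 8.78, against 6.42 to 6.97 in normal tissue. Zfp42 fell in papilloma (-0.49, adjusted p = 0.0426). The papilloma call of Mael ended without normal array 2, 4 or 5 or papilloma array 2 or 4 (-0.29 to -0.24, adjusted p up to 0.0682), and that of Zfp42 without normal array 1, 3, 4 or 5 or papilloma array 1, 2 or 5 (-0.51 to -0.43, adjusted p up to 0.105). Dazl values were 5.41 to 5.69 in carcinomas, 5.74 to 6.04 in papillomas and 5.71 to 6.19 in normal tissue, below the median of every array (6.79 to 6.90).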

How the data were processed

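Total RNA of 15 mouse tissues was hybridised to single-channel Affymetrix arrays, 1 per sample, with groups of 5 taken from the sample titles. The deposited values are log2 RMA summaries per probe set, made with RMA and Affymetrix Expression Console per the submitters' processing notes. RMA subtracts background and gives all arrays 1 intensity distribution, which compresses changes of dim genes and removes global ones. No build is named for the probe annotation in the sources used here. Array medians were 6.79 to 6.90; the number of arrays limits precision.

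Of 41345 probe sets, 23521 were paired with 1 symbol, 1814 with several and 16010 with none; 23328 matched the RefSeq gene table (GRCm38.p6) by Entrez identifier, which updated names and gave chromosomes. The set with the highest mean stood for a gene, leaving 22180 genes. A model with group as its term was fitted to all arrays with limma 3.58.1 in R 4.3.3 (12 residual degrees of freedom), with Benjamini-Hochberg adjustment over all genes and a threshold of 0.05. It was tested on simulated data.

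Members, gene lists and alternatives were chosen with earlier results of these data known. Named genes are the 10 members and, of each list and comparison, up to 4 past the threshold with the largest rise and 4 with the largest fall; marker lists are given by counts and means, and the 3 nearest profiles are named for the 4 members whose group means spread most. Xist and Uty were named after their values were seen. Samples of a group came from different mice, per the series description, but normal arrays 2 to 5 were high in both Xist and Y-linked genes. Promoter sequences are RefSeq's. Alternatives were a replicate block, array weights, a variance trend, fits on 2 groups, quantile normalization, a common median, removal of chromosome shifts, a filter on dim genes, the mean of probe sets, all probe sets, and leaving out arrays.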

Additional observations from a re-analysis of the deposited data

Results flagged for a closer look

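In 3 of the 30 sets of 5 arrays (10 genes in 3 groups), 1 array stood apart from the others by Dixon's test; chance marks about 1 in 20. Dnmt1 was lowest in normal array 1 (9.21, with the next at 9.48 and a gap of 0.785 of the range). Ezh2 was highest in the same array (9.23, next 8.84, 0.737 of the range). Tet3 was highest in normal array 4 (9.21, next 9.12, 0.755 of the range). Normal array 1 was also the one normal array with low Xist (6.35).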

How the results depend on the processing

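In all 26 alternatives the 6 carcinoma calls against normal tissue held, as did those of Dnmt1, Uhrf1 and Ezh2 in carcinoma against papilloma and of Uhrf1 and Dnmt3b in papilloma against normal. Where a result moved, the cause was not tested, beyond fewer arrays or more tests by construction. The papilloma call of Tet1 (0.45) was lost with a replicate block (0.45, adjusted p = 0.0799), in a fit on only the 2 groups (0.45, adjusted p = 0.0532), over all probe sets (0.45, adjusted p = 0.0546) and without papilloma arrays 2 and 4 (0.36, adjusted p = 0.171). The carcinoma against papilloma call of Dnmt3b (0.28) was lost in the fit on 2 groups (0.28, adjusted p = 0.108), over all probe sets (0.28, adjusted p = 0.0687) and without papilloma arrays 2 and 4 (0.28, adjusted p = 0.124), where the papilloma value of Dnmt1 was 0.29 (adjusted p = 0.0757). In papilloma, Suz12 passed with array weights (-0.21, adjusted p = 0.0197) and Tet3 in the fit on 2 groups (0.15, adjusted p = 0.05). Values near 0 that passed nowhere changed sign: Dnmt3a in papilloma with array weights (0.023), a common median (0.039) and chromosome shifts removed (0.016), Dnmt3a in carcinoma with those shifts removed (0.013), and Eed in papilloma with quantile normalization (-0.015) and shifts removed (-0.0084). Carcinoma against papilloma had 1329 calls over all genes and 8 over the other pathway genes in the fit on 2 groups, and 1587 and 12 without papilloma arrays 2 and 4, against 2530 and 20; members called in papilloma were then 2, against 4. Leaving out each array in turn gave 2 to 5 members called in papilloma against normal. The range of differences in that comparison was 0.25 to 0.34 for Dnmt1, 0.35 to 0.61 for Tet1, -0.049 to 0.045 for Dnmt3a, -0.030 to 0.10 for Ezh2, -0.033 to 0.044 for Eed and -0.23 to -0.15 for Suz12. It was -0.10 to 0.039 for Tet2, 0.13 to 0.22 for Eed and -0.0029 to 0.088 for Suz12 in carcinoma against normal, and 0.22 to 0.34 for Dnmt3b, -0.048 to 0.21 for Tet1, 0.10 to 0.29 for Tet3 and 0.18 to 0.27 for Suz12 in carcinoma against papilloma. Of 153 calls of genes picked from the other lists (pathway, germline, S phase, mitotic and cell type, without erythrocyte markers), 126 held throughout. The cell type markers among them, and most of the S phase and mitotic genes, are not named above. Same-numbered arrays correlated in their deviations from the group means at -0.10 to 0.14. Arrays with different numbers were not correlated for comparison, so these values cannot tell whether a number stands for anything shared. The replicate block gave 6, 3 and 4 member calls in the 3 comparisons.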
